A study of Mus musculus with 24 samples.

Results

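The Gnas locus of distal mouse chromosome 2 was followed in reduced representation bisulfite sequencing (RRBS) of infant brown adipose tissue (BAT). Members were the MspI fragments that the authors' annotation named Gnas, and those lying at chr2:174275000-174365000 (GRCm38) under any name. They numbered 72 of the 65535 fragments in the table, and 48 of them were tested. All 24 libraries came from female C57BL/6J mice at postnatal day 12, 12 from litters of dams gavaged with DDT, a mixture of its o,p' and p,p' forms, and 12 from litters of dams given the olive oil vehicle (VEH). Littermates shared a library of whole interscapular fat, so that the litter was the replicate and the cell types of the fat were not separated. Dosing ran from mid-gestation into the first postnatal week and had ended before collection.

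Gnas encodes the alpha subunit of the stimulatory G protein, which couples beta-adrenergic receptors to adenylyl cyclase. In brown fat this step raises cAMP and switches on lipolysis and heat production. The locus is imprinted and has several first exons that splice to shared downstream exons. Nesp, the promoter of a neuroendocrine secretory protein, is known to be methylated on the paternal allele. Gnasxl, the promoter of the extra-large alpha subunit, and exon 1A, the promoter of a noncoding transcript, are known to be methylated on the maternal allele. Exon 1 of Gnas itself, which makes the common form of the subunit, is known to be free of methylation on both. Nespas is the antisense transcript that starts between Nesp and Gnasxl. The mice were inbred, and paternal and maternal reads were not told apart.

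In VEH litters Nesp, Gnasxl and exon 1A had intermediate to high methylation on average and Gnas exon 1 had little. The methylation level of a fragment is the percentage of its CpG calls that were methylated, and sub-regions were taken within 1000 bases of the annotated starts. Averaged over fragments, the level was 56.0% ± 9.17 (SD, n = 12 libraries) at Nesp over 5 fragments. At Gnasxl it was 58.5% ± 4.23 over 3 fragments and at exon 1A 70.5% ± 7.84 over 6. At Gnas exon 1 it was 6.56% ± 1.09 over 13 fragments. The highest VEH library at Gnas exon 1, 9.32%, lay far under the lowest at the other 3 starts, 40.2%, whereas the ranges of Nesp, Gnasxl and exon 1A overlapped one another. Both Nespas fragments had too few calls to be tested.

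The sequences of fragments that carry this contrast are shown from the GRCm38 genome, 5′ to 3′ on the plus strand, with each CpG in capitals. The first pair lay side by side in the coding first exon of Nesp, at chr2:174284689-174284751 and chr2:174284752-174284850, the only members that the authors placed in a CpG island core. The next was in the coding first exon of Gnasxl at chr2:174299355-174299427, and the one after it in the intron just behind the exon 1A start at chr2:174327949-174328001. The last, from intron 1 of Gnas at chr2:174330468-174330523, had more CpGs than the exon 1A fragment of similar length.
Nesp, first: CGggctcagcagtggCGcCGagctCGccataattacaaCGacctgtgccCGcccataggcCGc
Nesp, second: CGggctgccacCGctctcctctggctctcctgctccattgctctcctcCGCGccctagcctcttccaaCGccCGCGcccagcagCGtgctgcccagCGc
Gnasxl exon: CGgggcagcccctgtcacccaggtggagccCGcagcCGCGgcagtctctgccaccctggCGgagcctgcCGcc
exon 1A intron: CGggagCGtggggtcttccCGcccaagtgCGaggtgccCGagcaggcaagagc
Gnas intron 1: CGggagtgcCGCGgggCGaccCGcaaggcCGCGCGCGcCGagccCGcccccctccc
Of these, the Gnasxl exon and Gnas intron 1 fragments hold TGCCGC, the motif known to be bound by the imprint-protecting zinc finger protein ZFP57 when methylated. Searched on both strands, the motif was in 9 of the 48 tested members (18.8%), against 4.0% of table fragments of the same lengths. Over all 72 members the share was 12.5%, against 4.16%. The motif holds a CpG, and the table fragments were not matched for CpG number. With untested fragments counted, it was in 2 of 6 at exon 1A and in 3 of 10 further into the Gnasxl first exon. It was in 2 of 15 at Gnas exon 1, in none of the 6 within 1000 bases of the Gnasxl start and in none of the 6 at Nesp. A match describes letters in these windows and no binding.

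The authors' gene names understate how much of the set belongs to Gnas. Only 28 of the 72 were named Gnas, 33 were named Mir298 and 11 Gm20721. In the GENCODE M21 annotation, 31 of the 33 named Mir298 and 9 of the 11 named Gm20721 overlapped the Gnas gene, and Gm20721 runs antisense to it. The Nesp and Gnasxl fragments were all listed under Mir298, a microRNA gene below the window. The authors' table gave an island to Nesp alone. In the sequence, however, the 1001 bases around the first start had a CpG observed/expected ratio of 0.84 at exon 1A and 0.87 at Gnas exon 1, against 0.63 at Nesp and 0.59 at Gnasxl. Of the 24 untested members, 20 had a median of at most 1 call per library, and they were longer than the tested ones, with a median of 151 bases against 60.5. Libraries held 8371958 to 14124652 CpG calls over the table and 26257 to 40705 at the locus. Calls from one read are not independent, and the reads carried no molecular identifiers.

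At Nesp 4 of the 5 tested fragments had intermediate to high levels, and the other was low. The first core fragment, of 63 bases and 7 CpGs, ranged in VEH from 59.8% to 86.2% with a median of 76.5% (mean 73.2% ± 9.91, n = 12). In DDT it ranged from 9.68% to 85.3% with a median of 70.6% (mean 66.7% ± 20.9, n = 12). The groups overlapped, and the lowest DDT value came from replicate 12. The neighbouring core fragment, of 99 bases, had a VEH mean of 71.6% ± 10.7. Just before the start, a 93 base fragment spread widely, with a mean of 38.2% ± 28.8 over 10 VEH libraries. The low one, chr2:174285389-174285423, of 35 bases and 1 CpG, ranged from 8.48% to 18.7% in VEH (mean 13.7% ± 3.40, n = 12). The fragment next to it had 79.7% ± 2.96.

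In the coding exon of Gnasxl the levels were uneven, both near the start and further in. Within 1000 bases the 3 tested fragments had VEH means of 43.8% ± 6.42, 54.9% ± 9.73 and 77.0% ± 1.96. The fragment with the most calls, chr2:174297978-174298018, ranged in VEH from 72.1% to 80.0% with a median of 77.2% (mean 77.0% ± 1.96, n = 12). In DDT it ranged from 67.6% to 99.4% with a median of 76.9%. Both DDT extremes belonged to replicates 12 and 4, and the other 10 DDT libraries lay between 73.3% and 79.8%, inside the VEH range. Beyond 1000 bases, 10 fragments lay wholly within the rest of the first exon, with VEH means from 29.8% to 88.6%. The 3 highest of the 10, at 85.7%, 87.8% and 88.6%, stood next to each other. The 5 longer fragments of the 10 that did not follow a short one lay between 67.6% and 88.6%. A further fragment, chr2:174300051-174300256, ran past the end of the exon and had 85.7% ± 4.88.

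Exon 1A had the highest average of the 4 starts when fragments were averaged, 70.5%. From summed calls it was level with Gnasxl, at 67.2% against 67.4%. The fragment with the most calls in its poorest library (562), chr2:174328491-174328543, of 53 bases and 6 CpGs in the untranslated first exon, ranged in VEH from 14.5% to 75.4% with a median of 59.5% (mean 52.8% ± 17.4, n = 12). In DDT it ranged from 8.54% to 99.0% with a median of 39.4% (mean 46.8% ± 24.2, n = 12). The DDT extremes were again replicates 12 and 4, and the groups overlapped over nearly the whole scale. The intron fragment printed above had more calls by median over libraries, 1465 against 1000, and a VEH mean of 73.8% ± 11.3. The highest VEH level of the locus, 92.7% ± 5.90, was that of chr2:174326931-174326987, an intron fragment before the exon 1A start with 2 CpGs. Its poorest library had 1 call, and 12 VEH and 11 DDT libraries had a level.

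Averaged over its fragments, Gnas exon 1 had a low level in every VEH litter. The most deeply covered fragment, chr2:174330230-174330274, of 45 bases and 9 CpGs in the untranslated part of the exon, ranged in VEH from 2.44% to 3.29% with a median of 2.69% (mean 2.78% ± 0.298, n = 12). In DDT it ranged from 0.0217% to 5.14% with a median of 2.36%. The DDT ends were replicates 4 and 12 once more, and the remaining 10 lay between 1.93% and 3.07%. The lowest VEH level of the locus, 0.549% ± 1.01, was at chr2:174329945-174330077, which spans the first annotated start with 21 CpGs. Of 13 tested fragments, 2 had VEH means above 18%, at 24.7% ± 11.7 and 18.6% ± 2.29, and both followed a fragment shorter than the read. The former, chr2:174329692-174329752, ranged in VEH from 15.5% to 58.1%, with the highest level in VEH replicate 2.

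**Figure D1:**
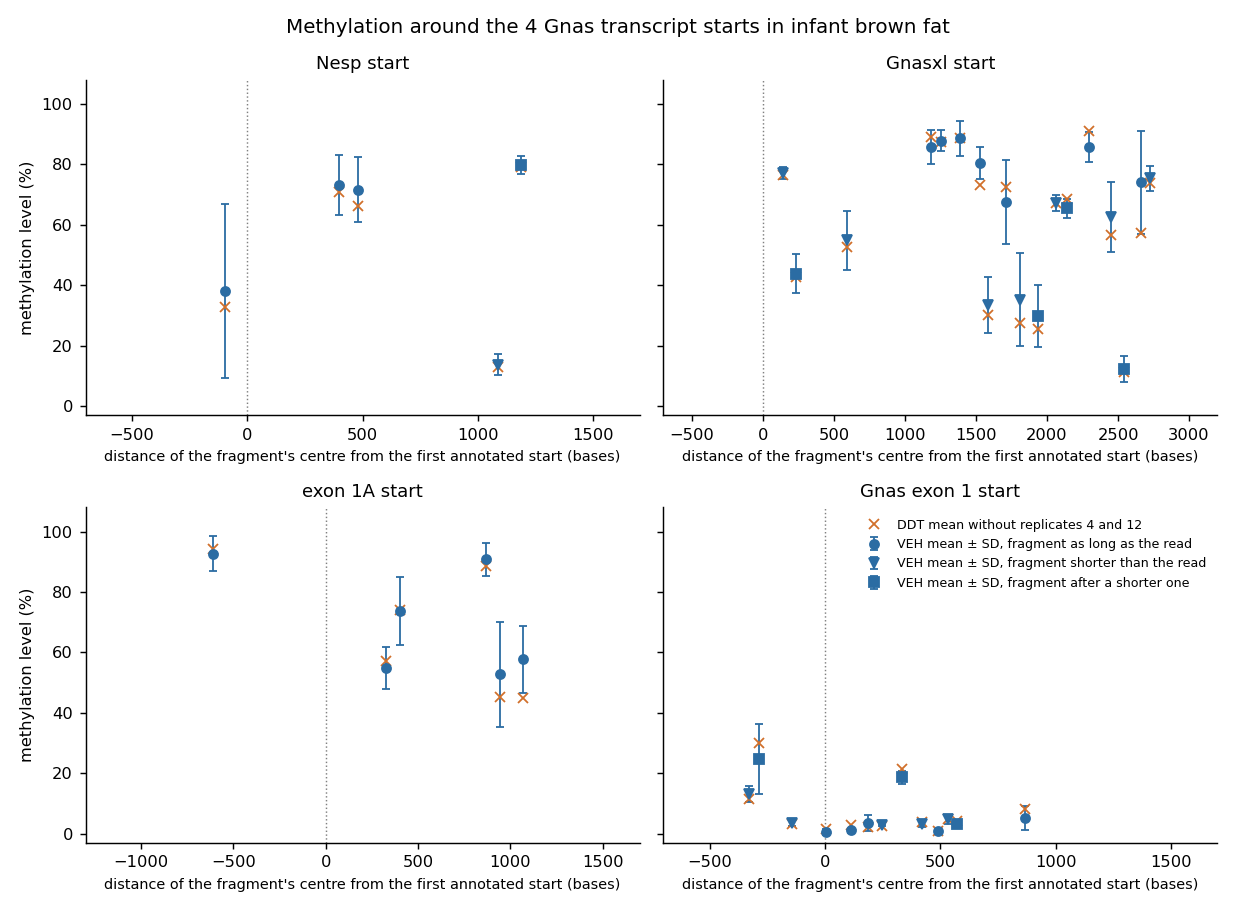
Methylation level (%) of each tested fragment against its distance in bases from the first annotated start of Nesp, Gnasxl, exon 1A and Gnas exon 1. Blue symbols are VEH means with SD over up to 12 libraries, shaped by fragment length class, and orange crosses are DDT means without replicates 4 and 12. Gnas exon 1 fragments lie between 0.549% and 24.7%, while exon 1A fragments lie between 52.8% and 92.7%.

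Fragment length moved with these levels. The reads had 50 bases, and 16 tested members were shorter, while 8 directly followed a shorter one. For such a pair, the calls of the second fragment were divided by the reads of the first, taken as its calls over its CpGs. In 5 of the 8 pairs at the locus this ratio was between 0.953 and 0.993, so that the second fragment had close to 1 call per read of the first however many CpGs it held. The other 3 had 1.40 to 7.21. In the table, 797 such pairs with a second fragment over 120 bases had a median ratio of 0.995 (quartiles 0.972 and 1.02). The median was 1.48 in 374 pairs whose first fragment had 60 bases or more. Where the first fragment was above 75%, the second had a median VEH level of 20.1% in the former pairs and 96.5% in the latter. A pair past the Gnasxl first exon shows the layout, chr2:174300290-174300327 with 3 CpGs at 62.6% ± 11.7 and chr2:174300328-174300468 with 6 CpGs at 12.3% ± 4.28.
short, 62.6%: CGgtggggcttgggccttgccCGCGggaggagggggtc
next, 12.3%: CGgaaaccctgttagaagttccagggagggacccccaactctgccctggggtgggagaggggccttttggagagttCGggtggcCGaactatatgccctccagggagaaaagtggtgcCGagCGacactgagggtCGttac
Their ratio was 0.989, and 1 CpG, the first of the second sequence, lies at the cut site that the pair shares. The table does not say which CpG a call came from. The level did not fall in all 5 of these pairs. It rose from 13.7% to 79.7% in the Nesp pair that starts at chr2:174285389 and from 2.78% to 18.6% in the pair at chr2:174330230. It fell from 77.0% to 43.8% in the pair at chr2:174297978 and from 35.2% to 29.8% in the pair at chr2:174299653. Levels also differed with length in general, and both the shortest and the longest fragments were lower. Among table fragments outside islands with at most 3 CpGs, 21.3% of those of 30 to 39 bases had a VEH mean of 80% or more. The share was 29.1% at 40 to 49 bases, 64.3% at 50 to 59, 62% at 60 to 99 and 42.6% at 100 to 220. The part of this in the levels of the locus was not tested. Without both kinds of fragment, the VEH means were 62.9% at Nesp, 82.0% in the Gnasxl first exon, 70.5% at exon 1A and 2.13% at Gnas exon 1, and no fragment within 1000 bases of the Gnasxl start was left.

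A pair of DDT libraries stood apart at the locus and in the whole table. Of the 14 members with a VEH mean between 30% and 70%, DDT replicate 4 had a level at 9, and 4 of these were at most 1% or at least 99%, against at most 1 in any other library. Over the table the share was 35.5% in this library and 2.10% in DDT replicate 12, and between 0.00% and 0.464% in the other 22. DDT replicate 4 also lacked a level at 17 of the 48 tested members. Its adjacent Nesp fragments were at 84.7% and 0.0351%. At exon 1A its levels were 0.514% and 6.80% at the first pair of fragments behind the start and 99.0% and 100% at the last pair. DDT replicate 12 was below every VEH library at both Nesp core fragments, at 9.68% and 5.36%, and at exon 1A, where it had 8.54% and 6.90% at the last pair. Differences between groups are therefore given with and without these 2 libraries.

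**Figure D2:**
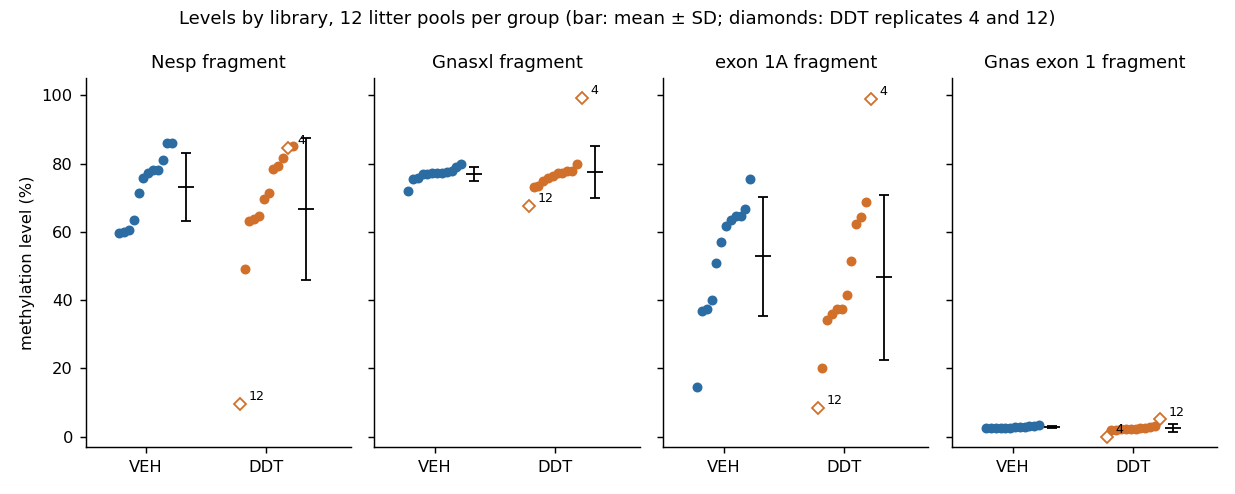
Methylation level (%) in each library at the fragment of Nesp, Gnasxl, exon 1A and Gnas exon 1 that had the most calls in its poorest library, with 12 VEH and 12 DDT litter pools sorted by level. Bars give the mean and SD, and open diamonds mark DDT replicates 4 and 12. The diamonds take the lowest or highest DDT place in 7 of the 8 cases, and the other points of the groups overlap at all 4 starts.

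The study asked whether perinatal DDT changed BAT methylation. At the Gnas locus no fragment passed the threshold after Benjamini-Hochberg adjustment of the ANOVA F test over all 20225 tested fragments of the table, where 0.00% passed. The smallest adjusted p among members was 0.869. Unadjusted, 3 of the 48 members (6.25%) had a p under 0.05, near the 4.18% of the whole table. None of the 3 remained without DDT replicates 4 and 12, when 3 other members of 47 passed, against 4.51% of the table. limma and a quasi-binomial regression each gave 4 unadjusted and 0 adjusted.

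All 3 fragments were lower in DDT. The fragment of the Gnasxl exon printed above ranged in VEH from 68.3% to 87.0% with a median of 80.9%. In DDT it ranged from 7.14% to 87.4% with a median of 76.4%. Of the 12 DDT libraries, 10 lay below the VEH median. Replicate 4 was at 7.14%, from 14 calls, replicate 3 at 36.8% and replicate 12 at 39.4%. The difference was -15.5 ± 7.15 percentage points (SE; unadjusted p = 0.0412 and adjusted p = 0.869 by the ANOVA across all fragments), and -7.17 ± 4.35 without those 2 libraries (unadjusted p = 0.115 by the same ANOVA). With 1 library left out at a time, the unadjusted p was 0.05 or more in 10 of 24 cases, 7 of them VEH libraries, and was highest, 0.0781, without DDT replicate 3 (-12.9 points). Without DDT replicate 4 alone the difference was -10.2 points.

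Further into the Gnasxl region, chr2:174300473-174300566 is coding in 1 annotated Gnas transcript and has 8 CpGs. This fragment is shown because its difference was the greatest of the tested members at the minimum of 10 calls.
Gnasxl region: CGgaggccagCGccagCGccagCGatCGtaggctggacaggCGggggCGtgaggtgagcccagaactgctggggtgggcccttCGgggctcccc
It ranged from 40.7% to 100% in VEH with a median of 76.5%, and from 8.71% to 80.8% with a median of 62.0% in the 10 DDT libraries with a level. The groups overlapped, and 9 of the 10 DDT libraries lay below the VEH median. The difference was -21.5 ± 9.10 percentage points (unadjusted p = 0.0285, adjusted p = 0.869, ANOVA across all fragments). DDT replicate 4 had no level there, and without replicate 12 as well the difference was -16.6 ± 8.40 (unadjusted p = 0.0628, the same ANOVA). The unadjusted p also rose above 0.05 without DDT replicate 2 (0.0616) and without DDT replicate 6 (0.0582). With levels from 5 calls the difference was -13.6 (unadjusted p = 0.182, ANOVA), less than the -15.5 of the fragment before, and by quasi-binomial regression it was -32.5.

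The third was chr2:174329660-174329691, a 32 base fragment before the Gnas exon 1 start and within the annotated exon 1A transcript. It ranged from 7.69% to 16.9% in VEH with a median of 13.4%, and up to 15.4% with a median of 10.2% in DDT. DDT replicates 4 and 12 had no methylated call among 46 and 40 calls. If each call were independent, counting error alone would allow levels of up to 6.52% and 7.50%. The fragment has 3 CpGs that a read covers together, so fewer reads lie behind these calls and the levels allowed are higher. The difference was -3.68 ± 1.60 points (unadjusted p = 0.0313, adjusted p = 0.869, ANOVA across all fragments) and -1.80 ± 1.07 without them (unadjusted p = 0.109, the same ANOVA). Leaving out VEH replicate 6, DDT replicate 4 or DDT replicate 12 alone took the unadjusted p to 0.0541, 0.0590 and 0.0590.

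Over the members, 33 of 48 (68.8%) had a lower mean in DDT, against 56.9% of all tested fragments. The median difference was -1.57 percentage points at the locus and -0.163 in the table. Without DDT replicates 4 and 12, 28 of 47 were lower (59.6%), against 49.0% of the table, and the medians were -0.577 and 0.0183 points. The most deeply covered Nesp fragment differed by -6.41 ± 6.67 points, or -2.50 ± 4.44 without the pair and -1.23 without DDT replicate 12 alone. The neighbouring Nesp core fragment differed by -15.9 ± 8.52, or -5.25 ± 5.09 without the pair (unadjusted p = 0.0762 and 0.314, ANOVA). At the exon 1A fragment given above the difference was -6.08 ± 8.60, or -7.47 ± 7.14. There the pair pulled opposite ways, with -10.8 without DDT replicate 4 alone and -2.60 without DDT replicate 12 alone. Without VEH replicate 8, VEH replicate 10 or DDT replicate 6 alone it was -9.56, -4.02 and -3.65. Its neighbour at the end of the exon, chr2:174328544-174328737 with 23 CpGs, differed by -11.3 ± 8.51, or -12.7 ± 6.84 without the pair (unadjusted p = 0.0772, ANOVA). At the Gnasxl fragment the difference was 0.608 ± 2.25 and turned to -0.577 ± 0.856. That of Gnas exon 1 was -0.313 ± 0.342, or -0.335 ± 0.145, with -0.0907 without DDT replicate 4 alone and -0.556 without DDT replicate 12 alone (unadjusted p = 0.0386, ANOVA). The fragments with the highest and lowest level differed by 0.658 ± 2.66 and 0.883 ± 0.720 points, or 1.59 ± 2.61 and 1.04 ± 0.792 without the pair. None of these passed an unadjusted p of 0.05 with all libraries. Without DDT replicates 4 and 12, the members that did were the Gnas exon 1 fragment (p = 0.0319), the one after it (2.63 ± 1.18 points, p = 0.0374) and chr2:174300051-174300256 at the end of the Gnasxl first exon (5.16 ± 2.38 points, p = 0.0446). With all libraries the last pair differed by -0.0748 ± 2.20 and 3.99 ± 2.53 points. The 3 had an adjusted p of 0.949 by the ANOVA across all fragments. They are named here after their values were seen.

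**Figure D3:**
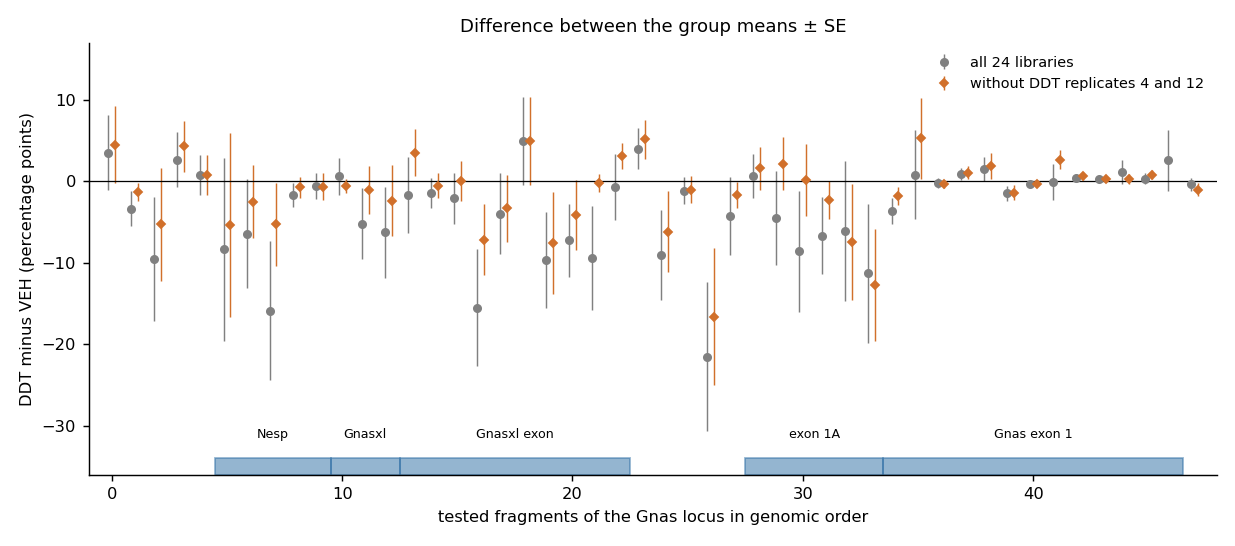
DDT minus VEH difference of the mean methylation level in percentage points, with its SE, at the 48 tested fragments of the Gnas locus in genomic order. Grey circles use all 24 libraries and orange diamonds leave out DDT replicates 4 and 12, and blue bars mark the sub-regions. The greatest difference with all libraries, -21.5 points, lies behind the Gnasxl exon, and the Gnas exon 1 fragments lie close to 0.

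The spread between DDT litters was wider than between VEH litters where those 2 libraries were kept, at the locus as in the table. The SD was higher in DDT at 41 of the 48 members (85.4%), against 79.2% of the table, and at 28 without them (58.3%), against 60%. For the 14 intermediate members, the median SD was 10.4 points in VEH, 15.5 in DDT and 10.3 in DDT without the pair. For the intermediate fragments of the whole table it was 5.61, 10.2 and 6.24 points. Intermediate fragments made up 29.2% of tested members and 9.82% of all tested fragments. Among those with 5 or more CpGs they were 8 of 31 members (25.8%) against 2.63% of 9377 fragments.

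The Nesp and exon 1A levels moved together between litters. Across the 12 VEH libraries, Pearson's r between the fragments with the most calls in their poorest library was 0.89 (permutation p = 8.00e-05) and Spearman's rho 0.90 (permutation p = 0.000190). Over the 10 relations computed in each group the adjusted p values were 0.000400 and 0.000900. Without the 2 libraries farthest from the Nesp median, r was 0.90. In VEH the 8 libraries above 70% at Nesp lay between 51.0% and 75.4% at exon 1A, with r = 0.62 among them, and the other 4 lay between 14.5% and 40.2%. In the 10 DDT libraries without replicates 4 and 12, r was 0.93 (permutation p = 0.000230, adjusted p = 0.000767), rho 0.82 (permutation p = 0.00561) and r without the 2 farthest 0.86. Both levels also moved with a measure of the library as a whole, the median level of the 1972 intermediate fragments outside the locus, which ran from 49.0% in VEH replicate 8 to 56.6% in VEH replicate 10. With Nesp in VEH, its r was 0.86 (permutation p = 0.000140) and its rho 0.89 (permutation p = 0.000270). With exon 1A, r was 0.96 (permutation p = 1e-05, the smallest that these permutations can give) and rho 0.94 (permutation p = 3.00e-05). Without the 2 farthest libraries r was 0.87 and 0.89. In the 10 DDT libraries both had r = 0.95 with it (permutation p = 9.00e-05 and 4.00e-05). With the total calls of the library, r was -0.61 for Nesp (permutation p = 0.0345) and -0.69 for exon 1A (permutation p = 0.0123), with adjusted p values of 0.0690 and 0.0308. The rho values were -0.57 and -0.62 (permutation p = 0.0605 and 0.0377), and r without the 2 farthest libraries was -0.37 and -0.60. In the 10 DDT libraries r was -0.24 (permutation p = 0.506) and -0.41 (permutation p = 0.239), and -0.68 and 0.02 without the 2 farthest. Gnasxl and Nesp had r = 0.35 (permutation p = 0.281) and rho = 0.19 (permutation p = 0.557) in VEH, and r turned to -0.31 without the 2 farthest libraries. In the 10 DDT libraries r was 0.68 (permutation p = 0.0311, adjusted p = 0.0777), rho 0.62 (permutation p = 0.0608) and r without the 2 farthest 0.55. The Gnasxl fragment used here varied little in VEH (SD 1.96), and the other Gnasxl fragments were not used. Of these, chr2:174298436-174298472 (SD 9.73) was lowest in VEH replicate 8, at 34.5%, and highest in VEH replicate 10, at 68.8%. The other, chr2:174298019-174298165 (SD 6.42), was lowest in VEH replicate 2 and highest in VEH replicate 7. The other 4 relations between starts had adjusted p values for r of 0.113 to 0.438 in VEH and 0.226 to 0.791 in DDT. Among them, Gnasxl and Gnas exon 1 had r = -0.33 but rho = -0.62 in VEH (permutation p = 0.0384 for rho, adjusted p = 0.0768). In the 10 DDT libraries that rho was -0.13. Gnasxl and exon 1A had r = 0.54 but rho = 0.07 in VEH.

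Several VEH litters took the ends along the locus. Of the 13 intermediate members with a level in all 12 VEH libraries, VEH replicate 8 was lowest at 7, VEH replicate 2 at 2, and VEH replicates 5, 6, 9 and 10 at 1 each. VEH replicate 10 was highest at 5, VEH replicate 7 at 4, VEH replicate 4 at 3 and VEH replicate 6 at 1. Outside the locus VEH replicates 8 and 10 were lowest and highest at 27.1% and 20.8% of 1815 intermediate fragments. At the exon 1A fragment VEH replicate 8 had 14.5% and VEH replicate 10 had 75.4%.

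**Figure D4:**
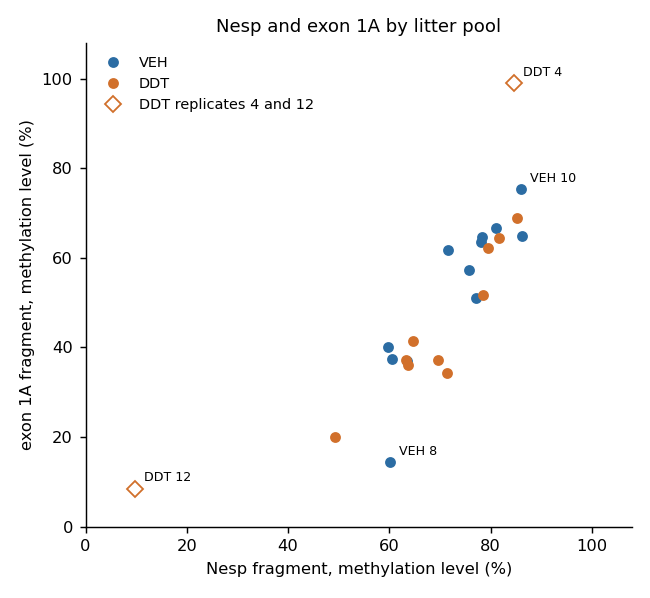
Methylation level (%) of the exon 1A fragment against that of the Nesp fragment, each the one with the most calls in its poorest library, 1 point per litter pool, blue for VEH and orange for DDT, with open diamonds for DDT replicates 4 and 12. The VEH points run together from VEH 8, with 14.5% at exon 1A, to VEH 10, with 75.4%, and the 2 DDT replicates lie outside them.

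The 2 flanks of the domain differed in how many intermediate fragments they held, a difference that was not tested. In the 200000 bases below the window, 21 tested fragments named Npepl1, Stx16 or Mir298 had a median VEH level of 7.36%, and 4 (19.0%) were intermediate, against 9.82% of the table. Above it, 17 fragments of Ctsz, Th1l, Atp5e, Slmo2 and Tubb1 had a median of 6.97%, and 0 were intermediate. With 5 or more CpGs, the highest VEH mean was 88.4% below the window and 14.6% above it. The 11 fragments named Gnas far below the window, in and beyond Gm10714, included 4 tested ones at 14.3%, 79.6%, 59.0% and 72.2%. At the other end, chr2:174361440-174361478, between genes, was at 56.5% ± 2.08 in VEH and 56.1% ± 2.09 in DDT (55.5% ± 1.36 without the pair). There DDT replicate 4 had 57.1%, from 14 calls, and DDT replicate 12 had 61.3%, above the highest VEH library at 59.7%.

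Other imprinted genes in the table were covered more thinly. Of 9 listed, 7 had tested fragments, 21 in all, of which 4 (19.0%) were intermediate in VEH. Mcts2, a retrogene within an intron of H13, had both of its island core fragments in that range. Nnat, a proteolipid gene within an intron of Blcap, had 2 of 5 fragments there but 0 of its 2 island core fragments. Its fragment with the smallest p had 62.0% ± 8.02 in VEH and 51.9% ± 19.0 in DDT. That difference was -10.0 ± 5.96 points (unadjusted p = 0.107, ANOVA), or -2.82 ± 3.50 without DDT replicates 4 and 12 (unadjusted p = 0.431). Only Gpr1 had an unadjusted p under 0.05, at 1 fragment that differed by -1.80 ± 0.816 points (p = 0.0382, ANOVA), or -1.61 ± 0.855 without the pair (p = 0.0739). Without the pair the only one of the 21 under 0.05 was a fragment of L3mbtl1, a Polycomb-related gene named here after its value was seen, with 3.35 ± 1.30 points (p = 0.0182, ANOVA) against -0.511 ± 2.93 with all libraries. None of the 21 passed adjustment either way. Of 968 genes with 3 or more tested island core fragments, the 5 with the highest share of these between 30% and 70% were 6330409D20Rik with 3 of 3, Mir219-2 with 4 of 5, Rbm46 with 6 of 8, Boll with 5 of 8 and A930004D18Rik with 2 of 5. Gnas had 0 of 2 core fragments of the authors' annotation in that range, since both were above 70%, so that by this measure these genes do not resemble it.

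Genes of G protein and cAMP signalling, whether they raise or lower cAMP, were taken from a list of 19, and 17 had tested fragments. Of 103 fragments, 5 were higher and 3 lower in DDT at an unadjusted p under 0.05 (7.77%, against 4.18% of the table), and 0 passed adjustment, with a median difference of -0.142 points. Without DDT replicates 4 and 12, 4 were higher and 2 lower of 98 (6.12%, against 4.51% of the table), 0 passed adjustment and the median was 0.0951. Crtc2, a coactivator of CREB, had the smallest p, 0.00350 (adjusted p = 0.869, ANOVA across all fragments), with 4.86% ± 0.942 in VEH and 6.51% ± 1.44 in DDT. The difference was 1.66 ± 0.504 points, or 1.32 ± 0.408 without the pair (unadjusted p = 0.00413, ANOVA). Sctr, the secretin receptor, which is coupled to the same G protein, had 97.3% ± 0.821 and 98.7% ± 1.35 (unadjusted p = 0.00783, the same ANOVA), and the pair had no level there. For Mc3r, a melanocortin receptor, where the pair also had no level, the values were 23.5% ± 5.71 and 30.3% ± 7.17 (unadjusted p = 0.0223, ANOVA). For Pde7a, a cAMP phosphodiesterase, they were 6.35% ± 1.14 and 4.90% ± 1.63, a difference of -1.45 ± 0.575 points, or -0.935 ± 0.394 without the pair (unadjusted p = 0.0193 and 0.0278, ANOVA). Sctr and Pde7a each had 1 fragment higher and 1 lower at an unadjusted p under 0.05, and the one with the smaller p is given. Gnb4 differed by -2.99 ± 1.29 points, or -2.39 ± 1.21 without the pair (unadjusted p = 0.0302 and 0.0623, ANOVA). Rgs2 differed by 3.16 ± 1.48 points, or 2.16 ± 1.39 without the pair (unadjusted p = 0.0439 and 0.135, ANOVA).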

How the data were processed

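RRBS of infant BAT was analysed from 12 VEH and 12 DDT libraries. The authors trimmed the reads of 50 bases and mapped them to GRCm38 (Bismark 0.15.0 with Bowtie2, per the labels). They deposited counts of methylated and not methylated CpG calls per MspI fragment, without normalization. The table analysed here covers chromosomes 1, 2 and part of 3. Levels were used from 10 calls, and the 20225 fragments with a level in at least 8 libraries per group were tested by ANOVA F test, as the paper's statistics name it, with Benjamini-Hochberg adjustment over all of them and a threshold of 0.05. The ANOVA and the quasi-binomial fit were tested on simulated data. Fragments given singly were the one with the most calls in its poorest library at each start, those with an unadjusted p under 0.05, and the highest and lowest. Those in untranslated exons are not printed as sequence. The members, gene lists and left-out libraries were chosen with earlier results of these data known. The correlations, the length classes and the printed fragments were chosen after the values were seen. Sequences are from the GRCm38.p6 genome of RefSeq and gene positions from GENCODE M21. Alternatives were limma on log2((methylated + 1)/(not methylated + 1)), quasi-binomial regression, minimums of 5, 20 and 50 calls, other library minimums, a depth covariate, a replicate block, and libraries left out. Python 3.11.15, NumPy 2.4.6, pandas 2.3.3, SciPy 1.17.1, matplotlib 3.10.9, R 4.3.3 and limma 3.58.1 were used. Permutation tests were two-sided with 100000 resamples.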

Additional observations from a re-analysis of the deposited data

How the results depend on the processing

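No member passed the adjusted threshold under any of the alternatives run. The number with an unadjusted p under 0.05, 3 of 48, became 0 of 37 with at least 50 calls per library. At that minimum DDT replicates 4 and 12, with 46 and 40 calls, drop out at chr2:174329660-174329691 (p = 0.109, ANOVA). DDT replicate 4, with 14 calls, drops out at chr2:174299355-174299427 (p = 0.0564, ANOVA). The third fragment, chr2:174300473-174300566, had -18.2 points (p = 0.0727, ANOVA). With the replicate block the number was 1. The labels do not say whether the replicate numbers pair the litters. The correlations of the deviations of libraries with the same number ran from -0.15 to 0.18, which cannot settle it. Leaving out 1 library at a time gave 2 to 5, and the 5 came without DDT replicate 11. The mean VEH level of Gnasxl was 63.6% with a minimum of 5 calls and 67.4% from summed calls. That of Gnas exon 1 was 3.88% from summed calls. Among fragments as long as the read and not after a shorter one, a choice made after seeing the data, it was 2.13%, and that of the Gnasxl first exon was 82.0%, since other fragments enter the mean. Direction turned at 3 of the 9 fragments given singly. At chr2:174297978-174298018 the difference was -0.577 points without DDT replicates 4 and 12 and -1.37 to 1.51 with 1 library left out. At chr2:174326931-174326987 it was -0.0921 on limma's log2 ratio scale and -0.0109 to 1.91 points with 1 left out. At chr2:174329945-174330077 it was -0.343 on the same limma scale, 0.165 points from 20 calls and 0.248 without DDT replicate 5. Other differences moved by over 1.5 times. Quasi-binomial regression gave -8.59 points at chr2:174299355-174299427, -32.5 at chr2:174300473-174300566, -2.29 at chr2:174329660-174329691 and -0.858 at chr2:174330230-174330274. From 5 calls the second was -13.6, from 20 calls the first was -10.2, and from 50 calls the third was -1.80. With the depth covariate the Nesp fragment had -4.03, the exon 1A fragment -2.99 and chr2:174326931-174326987 had 1.22, which the replicate block put at 1.33. The cause was not tested. The untested members, with few or no calls, are not described by these values, and differences within the litter spread given above could not be resolved here.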
